A study of Homo sapiens with 6 samples.

Results

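The genes described here are the cyclins, cyclin-dependent kinases (CDKs) and pocket proteins that control the passage of a cell out of G1, measured by RNA sequencing in a pancreatic cancer cell line of human origin, BxPC-3. They were picked out by gene symbol, as CCND1, CCND3, CCNE1, CCNE2, CDK2, CDK4, CDK6, CDKN1B, RB1 and RBL1. The choice was made with earlier results of these data known. All 10 were found among the 26255 symbols in the files, and all 10 entered the tests, which took in the 12040 genes whose mean level reached 1 FPKM. FPKM is a level per length of transcript and per size of library. The 3 groups had 2 libraries each, namely Parent cells with no treatment, cells treated with the negative control NC-1, and cells treated with the microRNA miR-4711-5p, all at 36 h after the start of treatment. Every group was the same cell line, so the Parent group lacked the transfection that the other two groups shared, and the labels do not say whether the replicates were separate cultures. The p-values therefore measure the spread between these samples, which may be technical.

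The D cyclins, CCND1 and CCND3, bind CDK4 or CDK6 early in G1, and these kinases begin the phosphorylation of the pocket proteins RB1 and RBL1 (p107). The E cyclins, CCNE1 and CCNE2, bind CDK2 later in G1 and carry the phosphorylation further. CDKN1B encodes p27, which inhibits cyclin E and CDK2 complexes. Pocket proteins that lack phosphate hold back the E2F transcription factors and their DP partners, and their release is known to drive the genes of S phase. The activity of this circuit depends largely on protein turnover and phosphorylation, which mRNA levels do not measure.

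A microRNA recognizes its targets mainly through its seed, bases 2 to 8. The mature strand is shown because the sites described here are matches to its seed, in capitals (RefSeq, table of build GRCh38.p14).
miR-4711-5p: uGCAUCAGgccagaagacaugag
Sites were searched on the coding strand of the annotated transcripts (GRCh37, the same coordinates as the authors' hg19) as CTGATGCA (8mer), CTGATGC (7mer-m8), TGATGCA (7mer-A1) and TGATGC (6mer), each site counted once under its longest class. Among the 10 genes, only CDK6 had a 7mer or 8mer in the 3′ UTR of its canonical transcript, as did 1810 of 10565 tested genes (17.1%). The UTR of CDK6 is long, at 10219 bases, and 426 of 835 tested genes with a UTR of at least 5000 bases had such a site (51.0%). CCND1 had only a 6mer in its 3′ UTR. In coding sequence, CCNE1 and CDK4 each had a 7mer, and RBL1 had 2. A 7mer or 8mer in the coding sequence of the canonical transcript was found in 2605 of the 10565 tested genes (24.7%). CCNE2 and RBL1 also had a 6mer in coding sequence, and these are not printed. The 6 other sites are printed with 8 bases on either side and the match in capitals.
CDK6, 3′ UTR, chr7:92235638-92235644, minus strand: gatggttcCTGATGCtgggcaca
CCND1, 3′ UTR, chr11:69468445-69468450, plus strand: tgcgcctgTGATGCtgggcact
CCNE1, coding, chr19:30313241-30313247, plus strand: atctgaatTGATGCAaaaggttt
CDK4, coding, chr12:58144864-58144870, minus strand: tcaaggatCTGATGCgccagttt
RBL1, coding, chr20:35668622-35668628, minus strand: atcttcccCTGATGCcaatgtct
RBL1, coding, chr20:35627252-35627258, minus strand: atcgatagTGATGCAgaatcccc
These matches are a description of the letters and not evidence of binding. They are referred to again beside the levels of each gene.

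In Parent cells, CDK4 was the highest of the 10 genes at 133 ± 1.26 FPKM (mean ± SD, n = 2), followed by CCND1 at 78.3 ± 2.69, CDK2 at 46.8 ± 0.301, CCND3 at 34.5 ± 0.209 and CDK6 at 24.5 ± 0.709. CDKN1B, RB1, CCNE1, RBL1 and CCNE2 had means between 10.8 and 16.7 FPKM. RB1 (13.5 and 14.2 FPKM) and CCNE1 (13.4 and 13.2 FPKM) were neighbours in this order and lay close together. In the NC-1 and miR-4711-5p libraries the order was the same but for CDK6, whose mean stood above that of CCND3. With miR-4711-5p the libraries of these neighbours overlapped, so that CDK6 (39.5 and 34.6 FPKM) and CCND3 (36.1 and 34.6 FPKM) did not differ beyond their spread. With NC-1, the libraries of CCNE1, RBL1 and CCNE2 overlapped in the same way, as did those of RBL1 and CCNE2 with miR-4711-5p.

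**Figure D1:**
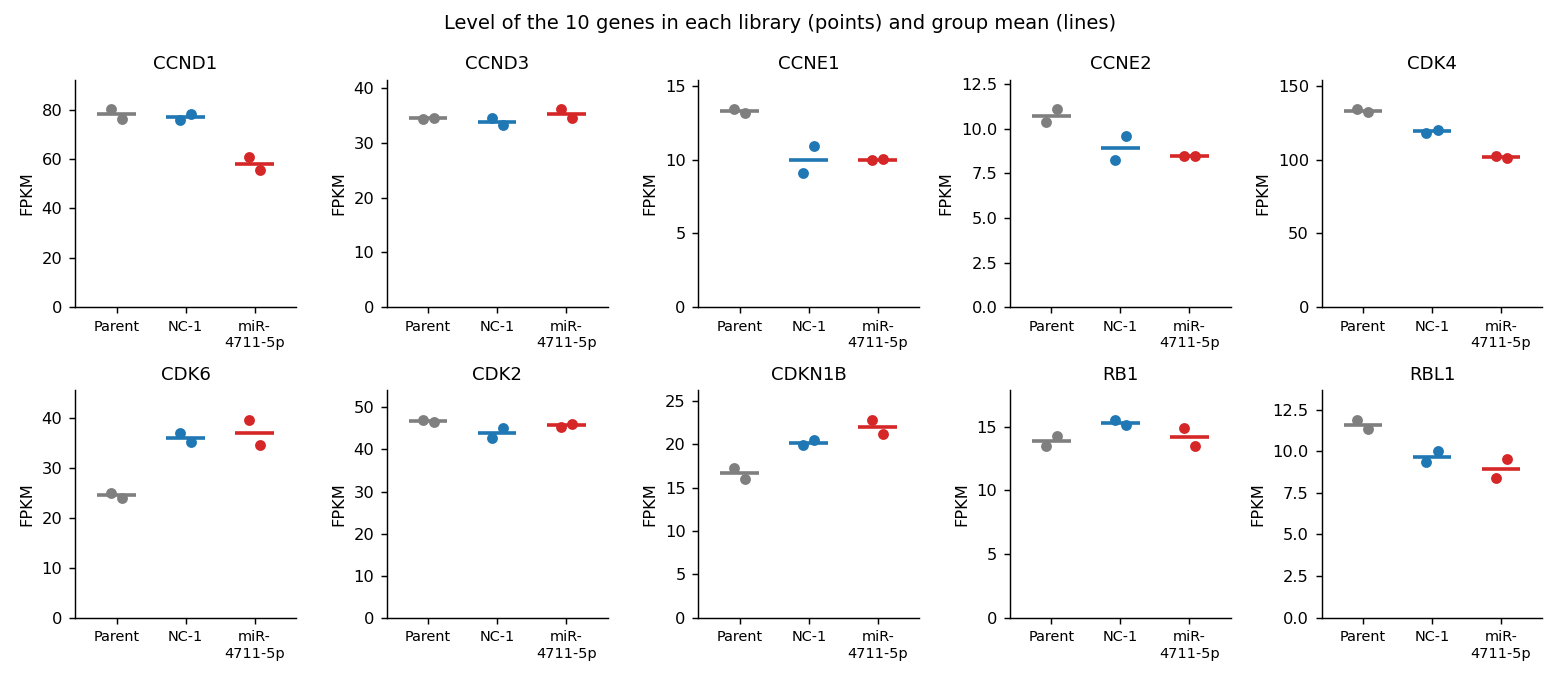
Level in FPKM (vertical axes, each from 0) of the 10 genes in the Parent, NC-1 and miR-4711-5p groups, with 1 point per library and a line at each group mean (n = 2). CCND1 and CDK4 lie lower in the miR-4711-5p libraries than in all 4 other libraries, while CDK6, CCNE1, CCNE2 and RBL1 differ mainly between the Parent libraries and the rest.

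The question put to these libraries was which genes differ between miR-4711-5p and control cells. CCND1 and CDK4 were lower with miR-4711-5p than with either control. CCNE1, CCNE2 and RBL1 fell, and CDK6 and CDKN1B rose, against Parent without passing the test against NC-1. CCND3, CDK2 and RB1 passed in no comparison. By limma on log2(FPKM + 1), with p-values adjusted over all genes tested and a threshold of 0.05, 2 of the 10 genes were higher and 5 lower in miR-4711-5p than in Parent cells, beside 18.7% of all genes higher and 24.7% lower. Against NC-1, 0 of the 10 were higher and 2 lower, beside 18.4% of all genes higher and 21.2% lower. At an unadjusted p under 0.05 limma also gave 0 higher and 2 lower, beside 23.6% of all genes higher and 25.7% lower at that level. Between NC-1 and Parent, 2 were higher and 2 lower, beside 12.1% and 15.1% of all genes. With an unadjusted p under 0.05, limma gave 2 higher and 4 lower there, beside 18.6% and 22.0% of all genes. The median log2 change of the 10 genes was -0.17, -0.03 and -0.06 in these 3 comparisons, in the same order, and that of all genes tested -0.01, 0.00 and -0.01. The comparisons share libraries in pairs, so their values for a gene are not independent of each other. Groups without overlap were common. Of the 12040 genes, 4211 had both miR-4711-5p libraries above both of Parent and 4727 below, with 2 and 6 of the 10. Against NC-1 these counts were 4364 and 4357, with 3 and 3 of the 10. Between NC-1 and Parent they were 3768 and 4122, with 3 and 5 of the 10.

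When every library was scaled to the same FPKM sum, the median change of all genes against Parent moved by 0.12 on the log2 scale, and 69.3% of the calls against Parent were then higher calls in place of 43.1%. The corresponding shares were 58.4% in place of 46.5% against NC-1, and 69.9% in place of 44.4% between NC-1 and Parent. Of the 12040 genes, that scaling gave 4010 higher and 1776 lower against Parent, and 2923 and 2083 against NC-1. It gave 2327 higher and 1000 lower between NC-1 and Parent. The deposited FPKM sums lay between 493145 and 550772, lowest in the miR-4711-5p libraries.

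**Figure D2:**
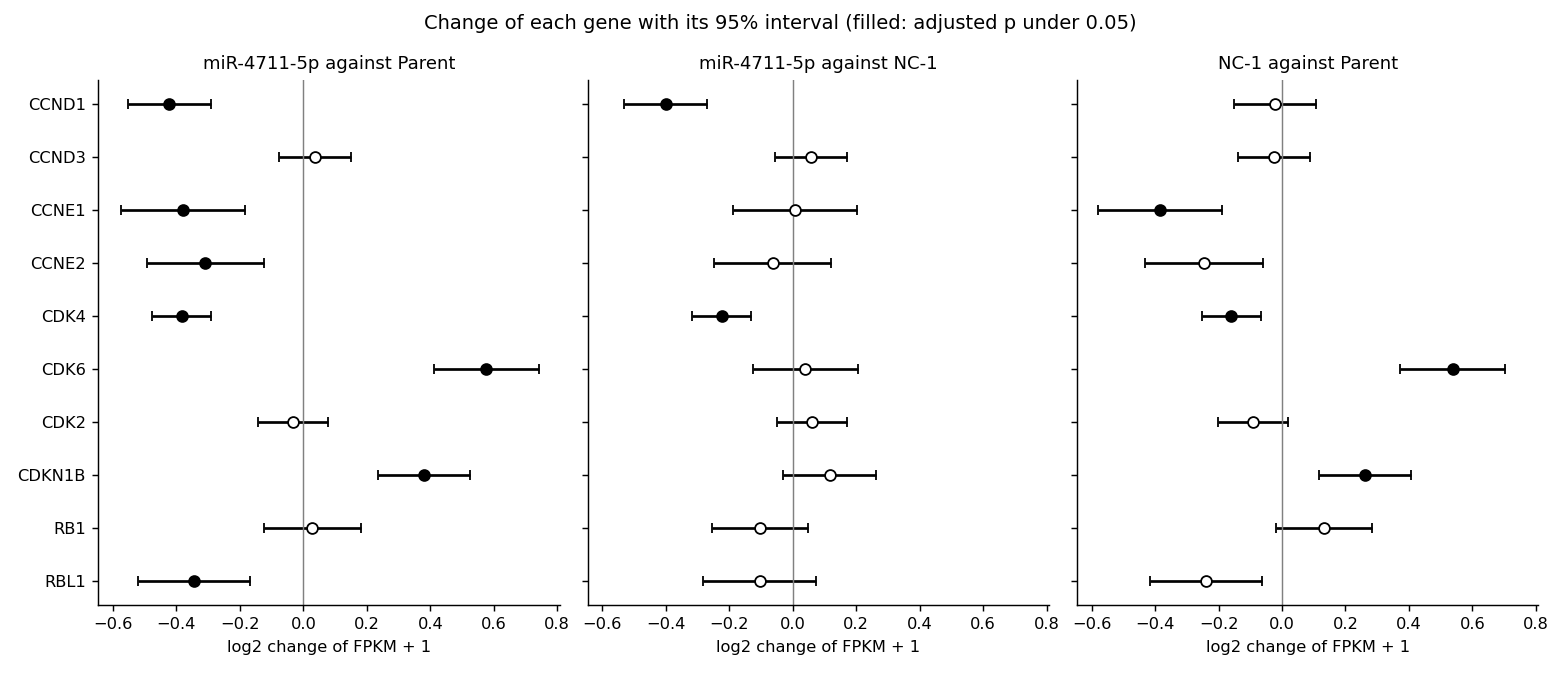
Change of each gene on the log2(FPKM + 1) scale (horizontal axis) with its 95% interval from limma, in the 3 comparisons, with filled points for an adjusted p under 0.05. Of the 10 genes, 7 are filled against Parent, 2 against NC-1, and 4 between NC-1 and Parent.

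CCND1, the cyclin whose level links growth signals to the cell cycle, stood at 80.2 and 76.4 FPKM in the Parent libraries, 75.8 and 78.3 in NC-1, and 60.7 and 55.7 with miR-4711-5p. The 2 libraries with the microRNA lay under each of the 4 controls, and the Parent and NC-1 values overlapped. The mean was 25.7% below that of Parent and 24.5% below that of NC-1. By limma CCND1 fell by 0.42 on the log2 scale against Parent (95% interval -0.55 to -0.29, adjusted p = 0.00100) and by 0.40 against NC-1 (-0.53 to -0.27, adjusted p = 0.00144). Between NC-1 and Parent the log2 change was -0.02 (-0.15 to 0.11, adjusted p = 0.794). Both calls held without each of the 6 libraries in turn. CCND1, on chromosome 11 (69455924 to 69469242), carries in its 3′ UTR of 3192 bases only the 6mer printed above.

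The 3′ end of CCND1 overlaps ORAOV1 (LTO1) on the opposite strand. The library kit marks strand, but the sources used here do not give the strand option of the authors' counting. ORAOV1 was at 6.05 FPKM in Parent, 6.12 in NC-1 and 7.92 with miR-4711-5p, and it rose by limma (log2 change against NC-1 of 0.32, adjusted p = 0.00590), the opposite direction to CCND1.

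CCND3, the other D cyclin expressed in these cells, was at 34.3 and 34.6 FPKM in Parent, 34.6 and 33.2 in NC-1, and 36.1 and 34.6 with miR-4711-5p. Its miR-4711-5p libraries lay just above those of NC-1 and overlapped those of Parent. The log2 change was 0.04 against Parent (-0.08 to 0.15, adjusted p = 0.585) and 0.06 against NC-1 (-0.05 to 0.17, adjusted p = 0.364). Scaling to the same FPKM sum brought CCND3 past the threshold against Parent, at a log2 change of 0.17. CCND2, the third D cyclin, stayed at or below 0.260 FPKM in every library.

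The level of CCND3 relative to CCND1 within a library, which no scaling of that library can change, was 0.428 and 0.454 in Parent, 0.456 and 0.425 in NC-1, and 0.596 and 0.621 with miR-4711-5p. The miR-4711-5p ratios were above all 4 control ratios. The summed level of the 2 genes was 113 ± 2.48 FPKM in Parent, 111 ± 0.823 in NC-1 and 93.5 ± 4.60 with miR-4711-5p (SD, n = 2). These ratios and sums are given as values and were not tested.

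CDK4, the more abundant of the D cyclin kinases, was at 134 and 133 FPKM in Parent, 118 and 120 in NC-1, and 103 and 101 with miR-4711-5p. The 3 groups did not overlap, and NC-1 lay between the other two. CDK4 fell by 0.38 on the log2 scale against Parent (-0.48 to -0.29, adjusted p = 0.000332) and by 0.22 against NC-1 (-0.32 to -0.13, adjusted p = 0.00407). It was also lower in NC-1 than in Parent, by a log2 change of -0.16 (-0.25 to -0.07, adjusted p = 0.0252). That last call was lost without each of the 6 libraries in turn (log2 changes of -0.17 to -0.15), and with scaling to the same FPKM sum, whereas the calls against Parent and NC-1 held in all of these. CDK4 lies on chromosome 12 (58141510 to 58146093) and carries the coding 7mer-m8 printed above, in 1 of its 3 annotated coding transcripts, with no match in its 3′ UTR of 798 bases. TSPAN31, which overlaps it on the opposite strand, was at 14.8 FPKM in Parent, 14.6 in NC-1 and 14.8 with miR-4711-5p.

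CDK6, the other D cyclin kinase, moved the opposite way from CDK4 against Parent. It was at 25.0 and 24.0 FPKM in Parent, 36.9 and 35.1 in NC-1, and 39.5 and 34.6 with miR-4711-5p. Both treated groups were above Parent, and they overlapped each other. CDK6 rose by 0.58 on the log2 scale with miR-4711-5p (0.41 to 0.74, adjusted p = 0.000725) and by 0.54 with NC-1 (0.37 to 0.70, adjusted p = 0.00309), both against Parent. Against NC-1 the change with miR-4711-5p was 0.04 (-0.13 to 0.20, adjusted p = 0.692). CDK6, on chromosome 7 (92234235 to 92465887), is the gene with the 3′ UTR match, near the distal end of that UTR at base 8810 of 10219.

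**Figure D3:**
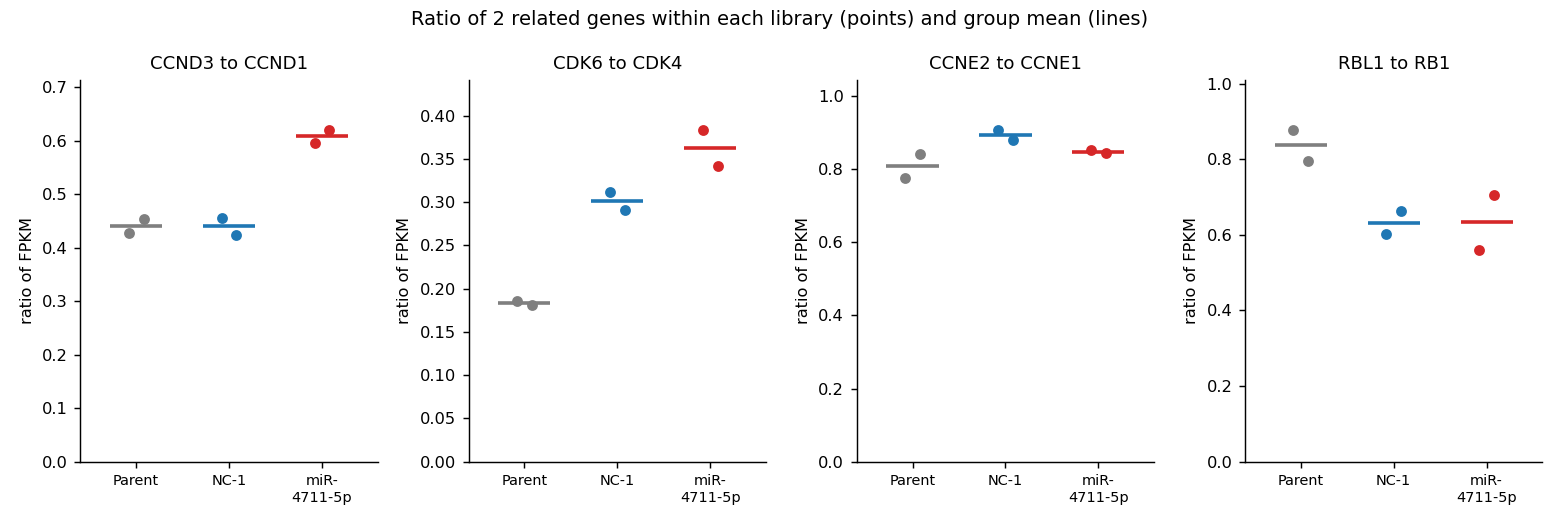
Ratio of the FPKM of related genes within each library (vertical axes, from 0) for CCND3 to CCND1, CDK6 to CDK4, CCNE2 to CCNE1 and RBL1 to RB1, with 1 point per library and a line at the group mean (n = 2). The ratio of CDK6 to CDK4 rises from 0.183 in Parent to 0.301 in NC-1 and 0.363 with miR-4711-5p, while that of CCNE2 to CCNE1 stays between 0.775 and 0.908 in all 6 libraries.

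Within libraries, the ratio of CDK6 to CDK4 was 0.186 and 0.181 in Parent, 0.312 and 0.291 in NC-1, and 0.384 and 0.342 with miR-4711-5p. The 3 groups of ratios did not overlap. The summed level of CDK4 and CDK6 was 158 ± 1.97 FPKM in Parent, 155 ± 0.323 in NC-1 and 139 ± 4.85 with miR-4711-5p (SD, n = 2). The sums of NC-1 were just below those of Parent, and those of miR-4711-5p were below all 4 others.

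CCNE1 was at 13.4 and 13.2 FPKM in Parent, 9.08 and 10.9 in NC-1, and 9.99 and 10.05 with miR-4711-5p. The miR-4711-5p libraries lay within the range of NC-1 and below Parent. CCNE1 fell against Parent by 0.38 on the log2 scale with miR-4711-5p (-0.57 to -0.18, adjusted p = 0.00939) and by 0.39 with NC-1 (-0.58 to -0.19, adjusted p = 0.0157). Against NC-1 the change was 0.01 (-0.19 to 0.20, adjusted p = 0.957). The call with miR-4711-5p was lost without Parent replicate 1 or either miR-4711-5p library (log2 changes of -0.37, -0.37 and -0.38), and that with NC-1 without either Parent library or NC-1 replicate 1 (-0.37, -0.40 and -0.26). The coding 7mer-A1 of CCNE1 was present in all 4 of its coding transcripts.

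CCNE2 was at 10.4 and 11.1 FPKM in Parent, 8.25 and 9.61 in NC-1, and 8.50 and 8.47 with miR-4711-5p. As with CCNE1, the miR-4711-5p libraries lay within the range of NC-1. By limma CCNE2 fell against Parent with miR-4711-5p (log2 change of -0.31, -0.49 to -0.12, adjusted p = 0.0170). The changes of -0.25 in NC-1 (-0.43 to -0.06, adjusted p = 0.0559) and of -0.06 against NC-1 (-0.25 to 0.12, adjusted p = 0.558) did not pass. The call against Parent was lost without Parent replicate 2 (-0.27) or either miR-4711-5p library (-0.31 in both), and with scaling to the same FPKM sum. The difference of NC-1 from Parent passed without NC-1 replicate 2 (-0.35) and was -0.15 without NC-1 replicate 1. The summed level of the E cyclins was 24.1 ± 0.333 FPKM in Parent, 18.9 ± 2.27 in NC-1 and 18.5 ± 0.0151 with miR-4711-5p (SD, n = 2).

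CDK2, the kinase of the E cyclins, was at 47.0 and 46.6 FPKM in Parent, 42.7 and 45.0 in NC-1, and 45.3 and 46.1 with miR-4711-5p. The whole range of its levels was narrow, and its log2 change was -0.03 against Parent (-0.14 to 0.08, adjusted p = 0.607) and 0.06 against NC-1 (-0.05 to 0.17, adjusted p = 0.343). Scaling to the same FPKM sum turned the former to 0.10. No seed match was found in CDK2.

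CDKN1B was at 17.3 and 16.0 FPKM in Parent, 19.9 and 20.5 in NC-1, and 22.8 and 21.1 with miR-4711-5p. The groups did not overlap, and NC-1 lay between Parent and miR-4711-5p. CDKN1B rose against Parent by 0.38 on the log2 scale with miR-4711-5p (0.23 to 0.52, adjusted p = 0.00261) and by 0.26 with NC-1 (0.12 to 0.41, adjusted p = 0.0211). The change of 0.12 between miR-4711-5p and NC-1 did not pass (-0.03 to 0.26, adjusted p = 0.175). The call for NC-1 was lost without Parent replicate 2 or either NC-1 library (log2 changes of 0.21, 0.28 and 0.24).

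RB1, the retinoblastoma protein gene, was at 13.5 and 14.2 FPKM in Parent, 15.5 and 15.1 in NC-1, and 14.9 and 13.5 with miR-4711-5p. The miR-4711-5p libraries overlapped those of Parent and lay below those of NC-1. The log2 change was 0.03 against Parent (-0.12 to 0.18, adjusted p = 0.747), -0.10 against NC-1 (-0.26 to 0.05, adjusted p = 0.241) and 0.13 between NC-1 and Parent (-0.02 to 0.28, adjusted p = 0.170). LPAR6, which overlaps RB1 on the opposite strand, was at 2.47 FPKM in Parent, 3.20 in NC-1 and 4.06 with miR-4711-5p.

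RBL1 was at 11.9 and 11.3 FPKM in Parent, 9.34 and 10.01 in NC-1, and 8.36 and 9.52 with miR-4711-5p. Both treated groups lay below Parent and overlapped each other. By limma RBL1 fell against Parent with miR-4711-5p (log2 change of -0.34, -0.52 to -0.17, adjusted p = 0.00937). The changes of -0.24 in NC-1 (-0.42 to -0.06, adjusted p = 0.0533) and -0.10 against NC-1 (-0.28 to 0.07, adjusted p = 0.304) did not pass. The call was lost without Parent replicate 1 or miR-4711-5p replicate 1 (log2 changes of -0.31 and -0.26). The ratio of RBL1 to RB1 was 0.878 and 0.794 in Parent, 0.602 and 0.663 in NC-1, and 0.561 and 0.706 with miR-4711-5p, with both treated groups below Parent. Of the coding matches of RBL1, the 7mer-m8 was in both annotated transcripts and the 7mer-A1 in 1. The third pocket protein gene, RBL2 (p130), was at 20.5 ± 0.851 FPKM in Parent, 22.9 ± 1.58 in NC-1 and 19.7 ± 0.758 with miR-4711-5p (SD, n = 2), and it fell against NC-1 (log2 change of -0.21, adjusted p = 0.0409) with no call against Parent (-0.05, adjusted p = 0.527). The call of RBL2 against NC-1 held in 4 of 15 alternatives and, of the 6 libraries left out in turn, only without NC-1 replicate 2 (log2 changes of -0.27 to -0.14).

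RBL1 is itself known as an E2F-regulated gene. Its promoter is shown because RBL1 is the pocket protein gene among the 10 that passed with miR-4711-5p against Parent. Against NC-1, RBL1 did not pass by limma (log2 change of -0.10, adjusted p = 0.304). Promoters of 250 bases before to 50 bases after a start were found in RefSeq (GRCh38.p14) for 7 of the 10 genes (CCND3, CCNE1, CDK4, CDK6, CDKN1B, RB1 and RBL1). They were searched on both strands for the E2F words TTTCCCGC, TTTCGCGC, TTTGCCGC and TTTGGCGC. Of the 7, only RBL1 held any, namely TTTCGCGC from 26 to 19 bases and TTTGGCGC from 16 to 9 bases before the start, with no overlap between them. At least 1 word was in any promoter of 616 of 8975 tested genes (6.86%), and in 1164 of all 35116 promoters (3.31%). The first share counts genes, which can have several promoters, and the second counts single promoters. The promoter, with the words in capitals, is chr20:37095948-37096247 on the minus strand.
RBL1 promoter: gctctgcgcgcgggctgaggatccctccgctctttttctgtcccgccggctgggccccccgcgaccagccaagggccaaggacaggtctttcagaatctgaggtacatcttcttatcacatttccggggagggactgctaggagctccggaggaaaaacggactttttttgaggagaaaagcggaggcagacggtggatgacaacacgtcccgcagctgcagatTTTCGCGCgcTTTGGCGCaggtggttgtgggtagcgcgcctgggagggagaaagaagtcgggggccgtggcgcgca
The presence of these letters does not show that a factor bound there, and their absence from the other windows says nothing about regulation by E2F.

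The genes whose pattern over the 6 libraries was most like those of CCND1 and CDK4 were found by the smallest distance between log2(FPKM + 1) values centred on each gene's mean. For CCND1 it was HMGA1, a chromatin protein gene, at a distance of 0.0419 on the log2 scale, out of 12039 other genes. The nearest of the 10 genes to CCND1 was CDK4, at 0.201 and rank 349. For CDK4 it was RUSC1 at a distance of 0.0364, and the nearest of the 10 was RBL1, at 0.192 and rank 655.

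Around these genes, the inhibitors of the INK4 and CIP/KIP families were represented by CDKN1A, CDKN2C and CDKN2D, which passed the filter out of a list of 6. CDKN2A and CDKN2B, which encode inhibitors of CDK4 and CDK6, were listed at 0 in all 6 libraries, and BxPC-3 is known for a deletion of this region. CDKN1C was below the filter. CDKN2C, an INK4 inhibitor, fell with miR-4711-5p against both controls, by 0.79 on the log2 scale against Parent (adjusted p = 0.000383) and by 0.45 against NC-1 (adjusted p = 0.00533), and it was lower in NC-1 than in Parent (-0.34, adjusted p = 0.0240), a call that was lost without any of the Parent and NC-1 libraries (-0.39 to -0.30). CDKN1A, which encodes p21, was higher in both treated groups than in Parent, at 97.4 ± 1.04 FPKM in Parent, 132 ± 3.92 in NC-1 and 124 ± 0.740 with miR-4711-5p (SD, n = 2). Its log2 change between miR-4711-5p and NC-1 was -0.10 (adjusted p = 0.108), and CDKN2D passed in no comparison.

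Of 9 genes that activate CDKs or remove phosphate from CDKs and pocket proteins, 1 was higher and 2 lower against Parent, and 1 was higher and 1 lower against NC-1. The shares over all genes tested were 18.7% higher and 24.7% lower against Parent, and 18.4% and 21.2% against NC-1. Between NC-1 and Parent they were 12.1% and 15.1%. The phosphatase gene CDC25B fell by 0.79 against Parent (adjusted p = 1.79e-05) and by 0.89 against NC-1 (adjusted p = 1.32e-05), from 79.4 ± 0.594 FPKM in NC-1 to 42.4 ± 0.902 with miR-4711-5p (SD, n = 2). The others were CCNH, higher against Parent, PPP1CA, lower against Parent, and CDC25C, higher against NC-1. CDC25A, which acts on CDK2 in G1, had a log2 change of -0.01 against NC-1 (adjusted p = 0.892). Between NC-1 and Parent PPP1CB was higher and CDC25C and PPP1CC lower. The calls of CDC25B held in all 15 alternatives, whereas that of CDC25C against NC-1 was lost without any of the NC-1 and miR-4711-5p libraries. With scaling to the same FPKM sum the counts became 2 higher and 1 lower against Parent and 3 higher and 1 lower against NC-1. Beside them, that scaling gave 4010 higher and 1776 lower of 12040 genes against Parent, and 2923 and 2083 against NC-1.

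A list of 11 genes was taken around the ubiquitin ligases that degrade D cyclins, E cyclins and p27. It holds CKS1B and CKS2 beside the genes of the ligases. Of the 11 genes, 2 were higher and 3 lower against Parent, and 3 higher and 1 lower against NC-1. Beside these stand 18.7% of all genes higher and 24.7% lower against Parent, and 18.4% and 21.2% against NC-1. Between NC-1 and Parent the shares were 12.1% and 15.1%. AMBRA1, a receptor for the turnover of D cyclins, was at 12.8 ± 0.567 FPKM in Parent, 10.5 ± 0.334 in NC-1 and 15.4 ± 0.138 with miR-4711-5p (SD, n = 2), and it rose by 0.52 on the log2 scale against NC-1 (adjusted p = 0.000528) and by 0.25 against Parent (adjusted p = 0.0111). SKP2, which directs the degradation of p27, was at 37.3 ± 0.469 FPKM in Parent, 35.7 ± 2.34 in NC-1 and 28.9 ± 1.94 with miR-4711-5p, and it fell by 0.36 against Parent (adjusted p = 0.00440) and by 0.30 against NC-1 (adjusted p = 0.0109). The others were RNF123, higher, and FBXO4 and CKS1B, lower, against Parent, and CKS2 and FBXO31, higher against NC-1. Between NC-1 and Parent 4 genes of the list were lower (AMBRA1, CKS2, FBXO4 and CKS1B), and RNF123 missed the threshold at a log2 change of 0.19 and a limma adjusted p = 0.0502. AMBRA1 passed against NC-1 without each library in turn, but against Parent not without Parent replicate 2 or either miR-4711-5p library (log2 changes of 0.21, 0.26 and 0.24), and SKP2 did not pass against NC-1 without NC-1 replicate 2 or miR-4711-5p replicate 1 (-0.23 in both). Against Parent the counts of the list were 4 higher and 2 lower with scaling to the same FPKM sum and 0 higher and 2 lower without Parent replicate 2 or miR-4711-5p replicate 2. Against NC-1 they were 4 higher and 1 lower with that scaling, and 1 to 2 higher and 0 to 1 lower without 1 library. Between NC-1 and Parent they were 1 higher and 3 lower, and 0 higher and 2 to 5 lower. Of all 12040 genes, scaling to the same FPKM sum gave 4010 higher and 1776 lower against Parent. It gave 2923 and 2083 against NC-1, and 2327 and 1000 between NC-1 and Parent.

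The E2F and DP factors, which the pocket proteins bind, changed in both directions. Of 10 genes, miR-4711-5p cells had 3 at a higher and 4 at a lower level against Parent, and 3 higher and 3 lower against NC-1. Between NC-1 and Parent, 2 were higher and 4 lower. The shares over all genes were 18.7% higher and 24.7% lower, 18.4% and 21.2%, and 12.1% and 15.1%, in the same order. TFDP1, the main DP partner of the E2F factors, was at 44.7 and 48.6 FPKM in Parent, 38.7 and 44.02 in NC-1, and 20.6 and 19.9 with miR-4711-5p. It fell by 1.17 on the log2 scale against Parent (adjusted p = 3.26e-05) and by 0.99 against NC-1 (adjusted p = 8.14e-05), more than any of the 10 G1 genes. E2F3, an activating factor, rose by 0.57 against NC-1 (adjusted p = 0.000345) and by 0.35 against Parent (adjusted p = 0.00278), and E2F8, a repressing factor, fell by 0.27 (adjusted p = 0.0219) and by 0.61 (adjusted p = 0.000600). The remaining calls with miR-4711-5p were E2F5 and E2F6, higher, and E2F1 and E2F2, lower, against Parent, and E2F2 and E2F4, higher, and E2F7, lower, against NC-1. Between NC-1 and Parent E2F5 (log2 change of 0.36) and E2F7 (0.31) were higher. E2F1 (-0.21), E2F2 (-0.53), E2F3 (-0.22) and E2F8 (-0.34) were lower in NC-1. Not all of these calls of NC-1 held when 1 library was left out. With miR-4711-5p, the calls of TFDP1 and E2F3 held without each library in turn. That of E2F8 against NC-1 was lost without NC-1 replicate 1 or either miR-4711-5p library (log2 changes of -0.23, -0.25 and -0.28). Against Parent the counts were 5 higher and 2 lower with scaling to the same FPKM sum, and 2 to 3 higher and 2 to 4 lower without 1 library. Against NC-1 they were 4 higher and 3 lower, and 1 to 2 higher and 2 to 3 lower. Of all 12040 genes, scaling to the same FPKM sum gave 4010 higher and 1776 lower against Parent, and 2923 and 2083 against NC-1.

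**Figure D4:**
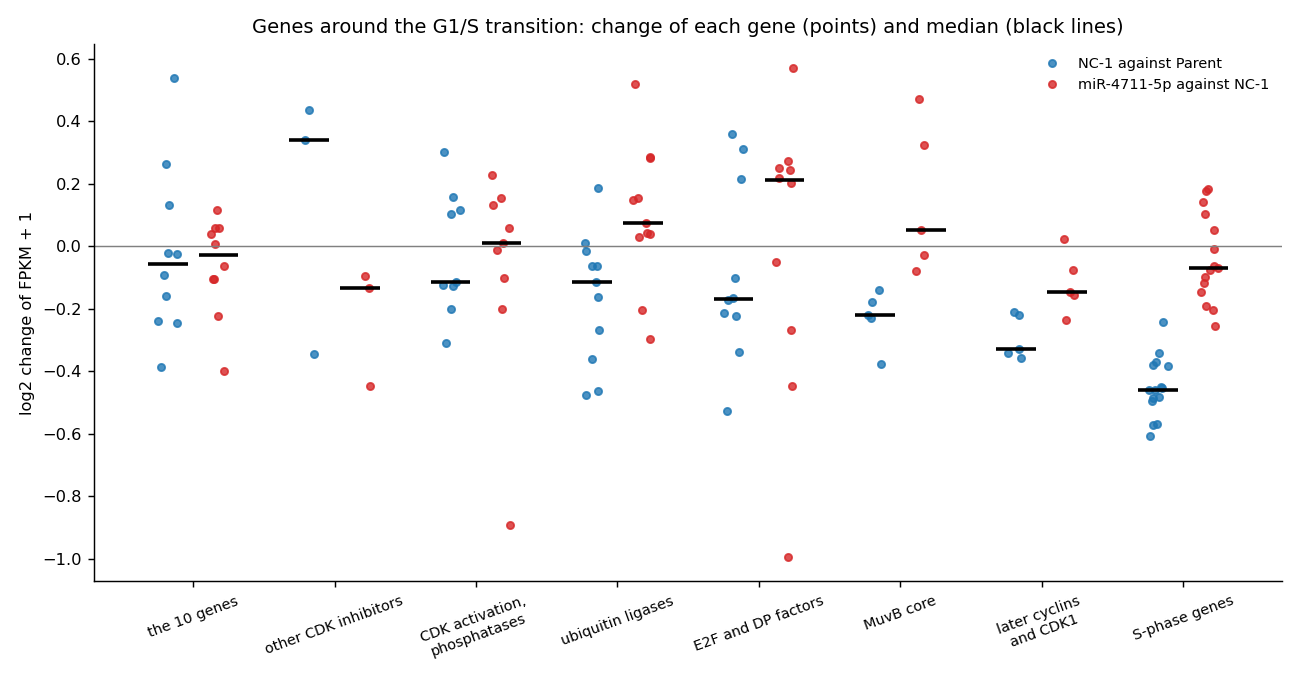
Change on the log2(FPKM + 1) scale (vertical axis) of each tested gene of the 10 G1 genes and of 7 lists around them, for NC-1 against Parent (blue) and miR-4711-5p against NC-1 (red), with black lines at the medians. All 15 S-phase genes lie below 0 in NC-1, with a median of -0.46, whereas their median between miR-4711-5p and NC-1 is -0.07. The lowest red point is TFDP1 and the next is CDC25B.

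Among all genes tested, 18.7% were higher and 24.7% lower against Parent, and 18.4% and 21.2% against NC-1. Between NC-1 and Parent 12.1% were higher and 15.1% lower. The MuvB core, with which RBL1 and RBL2 form the repressing DREAM complex, had 5 tested genes. RBBP4 was lower against Parent, LIN37 and LIN52 were higher against NC-1, LIN52 was lower in NC-1 than in Parent, and no gene of this list changed the same way against both controls. The call of LIN37 was lost without any of the NC-1 and miR-4711-5p libraries, and that of RBBP4 without Parent replicate 2 or miR-4711-5p replicate 1. Downstream of the circuit, 14 of 15 S-phase genes that E2F drives were lower against Parent after miR-4711-5p and all 15 after NC-1, by limma. Their median log2 change was -0.51 and -0.46 in these comparisons, which share the Parent libraries, and no gene of the list had a change above -0.20. Against NC-1, 3 of the 15 were lower with miR-4711-5p (CDC6, MCM5 and RRM1), 2 were higher (ORC1 and PCNA), and the median was -0.07. With scaling to the same FPKM sum these last counts became 1 lower and 3 higher, beside 2083 lower and 2923 higher of 12040 genes. ORC1 and PCNA no longer passed when any of the NC-1 and miR-4711-5p libraries was left out. The count of lower genes was then 1 without NC-1 replicate 2 or miR-4711-5p replicate 1, and 2 without NC-1 replicate 1 or miR-4711-5p replicate 2.

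CDC6, a loader of the replicative helicase, fell by 0.26 on the log2 scale against NC-1 (adjusted p = 0.00514). MCM5, a helicase subunit, fell by 0.20 (adjusted p = 0.0254) and RRM1, a subunit of ribonucleotide reductase, by 0.19 (adjusted p = 0.0346). CDC6 passed without each library in turn, MCM5 not without NC-1 replicate 2 or either miR-4711-5p library (log2 changes of -0.14, -0.22 and -0.18), and RRM1 only without miR-4711-5p replicate 2. All 5 tested cyclin and CDK genes of S phase and mitosis (CCNA2, CCNB1, CCNB2, CCNF and CDK1) were lower both with miR-4711-5p and with NC-1 against Parent. Beside them, 24.7% and 15.1% of all genes were lower in these comparisons, and 21.2% with miR-4711-5p against NC-1. By limma CCNB1 and CCNB2 were also lower with miR-4711-5p than with NC-1, by log2 changes of -0.16 (adjusted p = 0.0273) and -0.24 (adjusted p = 0.0136). The call of CCNB1 was lost without any of the NC-1 and miR-4711-5p libraries (-0.19 to -0.12), and that of CCNB2 without NC-1 replicate 2 or either miR-4711-5p library (-0.20, -0.23 and -0.24). With scaling to the same FPKM sum, 4 of the 5 passed against Parent, 1 against NC-1 and 3 between NC-1 and Parent. Of all 12040 genes, 1776 were then lower and 4010 higher against Parent, and 2083 and 2923 against NC-1. Between NC-1 and Parent 1000 were lower and 2327 higher.

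In bulk RNA, fewer cells in a phase and less mRNA per cell cannot be told apart. The libraries carried all 9 markers of pancreatic ductal epithelium, with summed levels of 6020 to 6403 FPKM in Parent, 5422 to 5702 in NC-1 and 5412 to 5469 with miR-4711-5p, and the epithelial adhesion gene CDH1 was the marker that changed most, at 115 ± 1.67 FPKM in Parent, 110 ± 0.128 in NC-1 and 29.6 ± 1.81 with miR-4711-5p (SD, n = 2). By limma 3 of the 9 were higher and 3 lower against Parent, and 5 higher and 4 lower against NC-1. Over all genes tested, 18.7% were higher and 24.7% lower against Parent, and 18.4% and 21.2% against NC-1. SOX9, a transcription factor of ductal cells, rose by 1.01 on the log2 scale against Parent and by 0.80 against NC-1, CLDN4 and KRT18 were also higher against both, and CDH1, MUC1 and KRT19 were lower against both. Of these calls, only that of KRT18 against Parent was lost when 1 library was left out (without Parent replicate 2 or either miR-4711-5p library). The summed markers of acinar cells reached at most 5.10 FPKM in a library, those of fibroblasts 2.47, those of blood cells 2.02 and those of endothelium 3.53. The acinar sum rested almost wholly on PRSS1, while the endothelial sum rested mainly on CDH5 and was highest in NC-1. Their part in the changes of the G1 genes was not tested. Between 16597 and 17305 symbols were above 0 in a library. Depth relative to Parent replicate 1 was only estimated, from the most common ratio of values under 0.1 FPKM. Of the genes used, 29.0% to 36.8% lay on that ratio in the other libraries. The estimate was between 0.751 and 1.21, lowest in NC-1 replicate 1 and highest in miR-4711-5p replicate 2.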

How the data were processed

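Total RNA of 6 BxPC-3 libraries was sequenced with a stranded mRNA kit. The authors aligned the reads to hg19 and deposited FPKM, normalised to gene length and library size with the Cufflinks tools, 1 file per library. The submitters' processing notes name TopHat2 2.1.1, Bowtie2 2.3.5.1, SAMtools 1.2 and Cufflinks 2.2.1. The paper's methods give other versions for the aligner steps. The gene annotation and strand option of the counting are not given in the sources used here. FPKM are not counts, and the read depth is unknown, so no counting interval is given.

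Groups were taken from the labels. Genes whose mean level reached 1 FPKM were tested on log2(FPKM + 1) with limma 3.58.1 (R 4.3.3; eBayes with a mean trend after lmFit and contrasts.fit), with 3 groups in the same fit, two-sided, Benjamini-Hochberg adjustment over 12040 genes and a threshold of 0.05. The 1 added to each FPKM makes the log2 changes of low genes smaller than those of their FPKM. Intervals are at 95% and not adjusted. Levels, ratios and sites were computed with Python 3.11.15 and pandas 2.3.3. A run of the fit on simulated data required only that its changes follow those put in. It says nothing on the rate of false calls in these libraries. Alternatives were another pseudocount and filter, 2 rescalings, no trend, only the groups compared, a fold requirement, a replicate block and leaving out each library.

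The genes and lists were chosen with earlier results of these data known. All 10 genes are named, as are up to 3 genes of each list called the same way against both controls with the largest change against NC-1, and the gene nearest in pattern to each of the 10 called against NC-1. Other genes named behind counts of 5 or fewer, and CDC25A, CDH1, SOX9, CLDN4, KRT18, MUC1, KRT19, PRSS1, CDH5 and overlapping genes, were chosen after their values were seen. Related copies (CDK4P1, CCND3P1 and CCND3P2 in the annotation) can share reads with CDK4 and CCND3, and TFDP1 is also known to have pseudogenes. How many reads were shared was not measured. A gene of the S-phase list is not reported here and was left out of its counts.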

Additional observations from a re-analysis of the deposited data

How the results depend on the processing

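The calls of CCND1 and CDK4 with miR-4711-5p against NC-1 held in 14 of 15 alternatives, all but a required change of 1.5-fold on the log2(FPKM + 1) scale, under which 0 of the 10 genes passed in each comparison by limma and 1112 genes in all against Parent, 976 against NC-1 and 298 between NC-1 and Parent. CDK6 with miR-4711-5p against Parent missed this requirement at a log2 change of 0.576, though its mean FPKM was 1.51 times that of Parent. With a pseudocount of 0.1 its log2 change was 0.594. Without a filter on low values, the tests took in 26255 genes. Of these, 3192 in all passed against Parent, with 4 of the 10 genes, and 2841 in all against NC-1. Between NC-1 and Parent 843 in all passed, with 1 of the 10. Main counts were 5230, 4763 and 3279 of 12040 genes, the number also tested under the fold requirement. With a mean of at least 5 FPKM (8874 genes tested), CCNE2 and RBL1 also passed between NC-1 and Parent. Scaling to the same FPKM sum turned 3 changes that had not passed, CDK2 against Parent to 0.10 and CCND1 and CCND3 between NC-1 and Parent to 0.062 and 0.059. The cause was not tested.

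Leaving out each library in turn gave 4 to 7 of the 10 genes and 3246 to 5185 genes in all against Parent, 2887 to 4679 in all against NC-1, and 1 to 3 of the 10 and 1457 to 2385 in all between NC-1 and Parent. The counts over all genes fell by over 1.5 times without miR-4711-5p replicate 1 (3246 against Parent and 2887 against NC-1), miR-4711-5p replicate 2 (3017 against NC-1), Parent replicate 1 (1457 between NC-1 and Parent), NC-1 replicate 1 (1680) and NC-1 replicate 2 (2133). With fewer samples, a lone library of a group is assumed to vary like the other groups. Changes that had not passed and turned in sign were RB1 against Parent (range -0.040 to 0.097 on the log2 scale), CCNE1 (-0.115 to 0.128), CCNE2 (-0.162 to 0.036) and CDK6 (-0.056 to 0.134) against NC-1, and CCND1 (-0.057 to 0.013) and CCND3 (-0.051 to 0.0035) between NC-1 and Parent.

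The samples share replicate numbers, but deviations from the group means of same-numbered samples correlated at 0.0610 (Parent and NC-1), 0.00301 (Parent and miR-4711-5p) and -0.00892 (NC-1 and miR-4711-5p) over 12040 genes, so the numbers were not taken as pairs. With the replicate number as a replicate block, 7, 2 and 4 of the 10 genes and 4983, 4564 and 2864 genes in all passed against Parent, against NC-1 and between NC-1 and Parent. Of 450 alternative values for the 10 genes, 392 kept direction and side of the threshold, 43 lost a call, 4 gained a call and 11 changed sign. The read depth is unknown.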
